A study of Mus musculus with 4 samples.

Results

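The 8 genes described here, Cdx2, Elf5, Hand1, Gata2, Gata3, Plac1, Tfap2a and Tfap2c, are regulators or markers of the trophoblast, the lineage that forms the outer layer of the blastocyst and later the placenta. They were taken by gene symbol from the platform annotation, which assigned 16 probe sets to them, out of 18193 genes and 45037 probe sets that were not controls. For each gene the probe set of highest mean signal over the 4 arrays was kept as its value, and every other probe set is described beside it. RNA from mouse embryonic stem cells (day 0, 2 samples) and from epiblast-like tissue (day 3, 2 samples) was hybridized to 4 Affymetrix arrays. The tissue had formed in SFEBq culture, in which dissociated stem cells reaggregate quickly and float in medium without serum. In 1 field the labels named all 4 samples differentiated stem cells, and their titles set the days apart. They gave no genotype, strain or added agent for either day, and did not say whether the samples of a day came from separate cultures. The p-values therefore measure the spread between these samples only, which may be technical.

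Trophoblast and epiblast separate early in the mouse embryo. In the outer cells Tead4 with its co-activator Yap1 turns on Cdx2 and Gata3, while Pou5f1 and Nanog oppose this programme in the inner cells from which embryonic stem cells derive. Cdx2, Eomes, Elf5 and Tfap2c then keep trophoblast stem cells, and Hand1, Gata2 and Gata3 act as these cells differentiate. Some of these genes also work elsewhere: Tfap2c is expressed in naive stem cells and germ cell precursors, Hand1 and Gata2 in mesoderm, and Tfap2a and Gata3 in surface ectoderm.

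Values are log2 signals from the RMA method, with a first quartile of 4.30 to 4.33 and a median of 5.78 to 5.79 over the probe sets of an array. Signals near the first quartile cannot be separated from background without detection calls, and those near the median may not be either. The labelled states were checked on markers. All 6 naive stem cell markers were lower at day 3, among them Nanog (from 12.83 to 10.11) and Zfp42 (13.16 to 10.63), and all 5 epiblast markers were higher, among them Fgf5 (3.62 to 11.18) and Otx2 (10.05 to 12.07). Pou5f1 was at 12.64 on both days. Of 13 visceral endoderm markers 12 were higher at day 3, led by Apob, Cubn and Ttr, and 1, Rhox5, was lower. Beside these marker counts, 20.9% of all genes were called higher and 21.4% lower. The log2 of the summed signals of the visceral endoderm markers was 13.32 and 13.28 at day 0 and 14.81 and 14.94 at day 3. In such bulk RNA, fewer cells of a type and less RNA per cell cannot be told apart.

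The comparison of the days addressed how these genes change as stem cells become epiblast-like tissue. The 8 genes did not move as a group. Tfap2c fell 17.7-fold, Gata3 and Cdx2 fell 1.68-fold and 1.53-fold, and Plac1 rose 5.60-fold, while Elf5, Gata2, Hand1 and Tfap2a were not called. Calls were made in limma at a threshold of 0.05 on p-values adjusted over all genes by the Benjamini-Hochberg method. Thus 4 of the 8 genes (50%) were called, beside 42.3% of all genes, with 1 higher (20.9% of all genes) and 3 lower (21.4% of all genes). For 7 of the 8 the day 0 and day 3 arrays had no overlap in values, beside 69% of all genes. The median log2 difference of the 8 was -0.31, against 0.01 over all genes. The share called lies near the background, and what stands out in size are Tfap2c and Plac1.

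**Figure D1:**
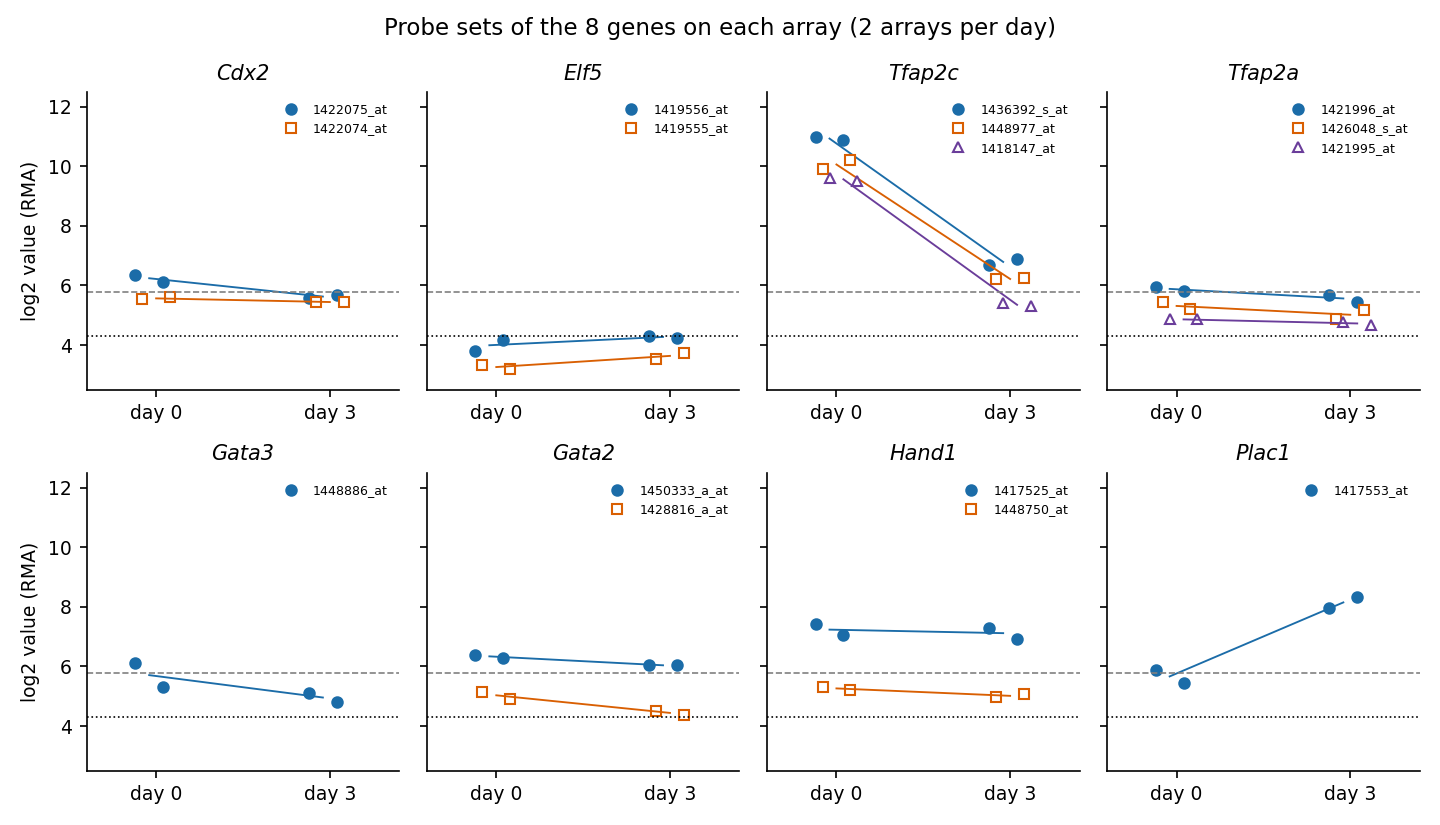
Log2 signal of every probe set of the 8 genes on each of the 4 arrays. Each point is 1 array, filled symbols are the probe set kept for the gene, open symbols the others, lines join the means of the days, the dotted line is the mean first quartile of the arrays and the dashed line their mean median. All 3 Tfap2c probe sets drop from above 9.5 to below 6.9, Plac1 climbs from below 5.9 to above 7.9, and both Elf5 probe sets stay below the first quartile.

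Tfap2c encodes AP-2 gamma, a transcription factor of trophoblast stem cells that is also present in naive stem cells and germ cell precursors. Its kept probe set, 1436392_s_at, read 10.98 and 10.89 at day 0 and 6.70 and 6.89 at day 3. Both day 0 arrays were high, both day 3 arrays low, and the gap between days was many times that between duplicates. The log2 difference was -4.14 ± 0.09 (SE, n = 2 per day; limma adjusted p = 2.8e-10). This was the 15th largest fall of 18193 genes, and 17 genes (0.0934%) were called with a fall of at least 4.

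The other Tfap2c probe sets showed the same fall. Probe set 1448977_at read 9.90 and 10.22 at day 0 and 6.20 and 6.24 at day 3, a change of -3.85 ± 0.11 (SE), for which limma gave an adjusted p = 1.4e-08 in the fit of all probe sets. Probe set 1418147_at read 9.61 and 9.52, then 5.40 and 5.30, a difference of -4.22 ± 0.10 (adjusted p = 4.3e-09). On no probe set did the days overlap. At day 3 the kept probe set and 1448977_at still lay above the arrays' median of 5.79, while 1418147_at lay below it. The call held in all 14 alternatives, with differences from -4.24 to -3.85.

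Tfap2a encodes AP-2 alpha, a close relative of AP-2 gamma that is known from surface ectoderm and neural crest as well as trophoblast. Its kept probe set read 5.96 and 5.81 at day 0 and 5.67 and 5.46 at day 3. The days did not overlap, but the difference of -0.32 ± 0.13 (SE, n = 2 per day) was not called (limma adjusted p = 0.071). The other 2 probe sets differed by -0.30 and -0.14 and were not called either, and both lay below the median on every array. The remaining AP-2 genes, Tfap2b, Tfap2d and Tfap2e, were below the first quartile on all 4 arrays, with differences of 0.05, 0.002 and 0.02.

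Cdx2 is the homeobox factor that specifies trophectoderm. Its kept probe set, 1422075_at, read 6.37 and 6.12 at day 0 and 5.59 and 5.67 at day 3. Both day 3 arrays were below both day 0 arrays, from a level above the arrays' median to one below it. The difference of -0.615 ± 0.13 (SE, n = 2 per day) was called (limma adjusted p = 0.0025). The second probe set, 1422074_at, read 5.53 and 5.60, then 5.45 and 5.44, and its difference of -0.12 ± 0.12 was not called in the fit of all probe sets (adjusted p = 0.53). From the mean of both probe sets the fall was 0.37, which was called (adjusted p = 0.011).

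Elf5 is an ETS family factor that reinforces Cdx2 and Eomes in trophoblast stem cells, and its promoter is known to be methylated in embryonic stem cells. Its kept probe set read 3.81 and 4.17 at day 0 and 4.30 and 4.24 at day 3, below the first quartile on every array. Its difference of 0.28 ± 0.14 (SE, n = 2 per day) was not called (limma adjusted p = 0.15). The second probe set, dimmer still, read 3.32 and 3.20, then 3.54 and 3.73, and was called higher by 0.38 ± 0.12 in the fit of all probe sets (adjusted p = 0.044), but not with the replicate number as a block (adjusted p = 0.058). Without day 0 replicate 2 the kept probe set was called (0.46, adjusted p = 0.026), and without day 0 replicate 1 its difference was 0.099. From the mean of both probe sets Elf5 was called higher, by 0.33 (adjusted p = 0.030). At such levels background and signal cannot be told apart.

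Gata3 is a zinc finger factor turned on beside Cdx2 in the trophectoderm, and it had 1 probe set. It read 6.11 and 5.31 at day 0 and 5.10 and 4.81 at day 3. The day 0 duplicates were further apart (0.80) than the lower of them was from the nearer day 3 array, although the days did not overlap. Replicate 1 exceeded replicate 2 by 0.80 at day 0 and 0.29 at day 3. The fall of 0.75 ± 0.22 on the log2 scale (SE, n = 2 per day) was called (limma adjusted p = 0.019). With the replicate number as a block the fall was also called (limma adjusted p = 0.0016). It rested on single arrays: leaving out day 0 replicate 1 gave -0.35, leaving out day 3 replicate 1 gave -0.90 and leaving out day 3 replicate 2 gave -0.61, and none of these was called (adjusted p = 0.11, 0.082 and 0.21). Without day 0 replicate 2 it was -1.15 and was called.

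Gata2, a relative of Gata3 that acts in trophoblast giant cells and in blood precursors, gave a weaker picture. Its kept probe set read 6.38 and 6.30 at day 0 and 6.05 and 6.03 at day 3. The days did not overlap, but the difference of -0.30 ± 0.11 (SE, n = 2 per day) missed the threshold (limma adjusted p = 0.054). The second probe set read 5.16 and 4.90, then 4.50 and 4.38, and was called with a change of -0.59 ± 0.14 in the fit of all probe sets (adjusted p = 0.0091). It lay below the arrays' median throughout and at day 3 near the first quartile, where signal and background cannot be told apart. With the mean of both probe sets, which includes this dim one, Gata2 was called lower, by 0.45 (adjusted p = 0.0071).

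Hand1 is a helix-loop-helix factor needed for trophoblast giant cells and also found in mesoderm. Its kept probe set read 7.42 and 7.05 at day 0 and 7.30 and 6.94 at day 3, above the arrays' median throughout. The days overlapped, and replicate 1 exceeded replicate 2 by 0.37 on both days. The difference of -0.12 ± 0.15 (SE, n = 2 per day) was not called (limma adjusted p = 0.60), and it turned to 0.066 without day 0 replicate 1 and to 0.065 when day 3 replicate 2 was left out. The second probe set differed by -0.25 ± 0.13 and was not called.

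Plac1 encodes a small secreted or membrane-bound protein of the placenta and, alone among the 8, is a marker and no transcription factor. Its 1 probe set read 5.89 and 5.45 at day 0 and 7.96 and 8.34 at day 3. Both day 3 arrays lay well above both day 0 arrays, while the duplicates of a day differed by 0.44 and 0.38. The difference of 2.49 ± 0.16 (SE, n = 2 per day) was called (limma adjusted p = 6.2e-07) and was the 188th largest rise of 18193 genes. It was 2.27 to 2.71 with 1 array left out, called each time, but the unmoderated test did not call it (adjusted p = 0.068). The rise stood beside that of the visceral endoderm markers (12 of 13 higher, beside 20.9% of all genes), whose part in it was not tested.

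**Figure D2:**
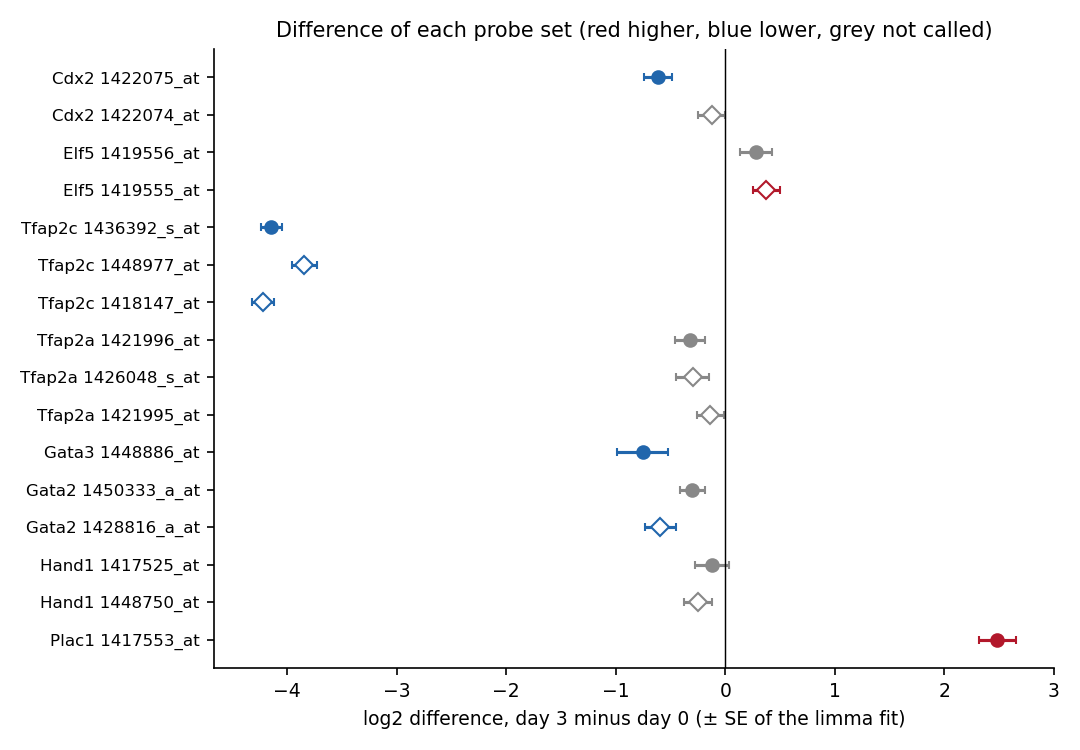
Log2 difference of each of the 16 probe sets, day 3 minus day 0, with the standard error of the limma fit over all probe sets. Circles are the probe sets kept for a gene and diamonds the others, and colours mark calls at an adjusted p under 0.05. Of the 16, 6 were called lower, 2 were called higher and 8 were not called, and the Tfap2c probe sets lie between -4.22 and -3.85.

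Of the 16 probe sets 8 were called, beside 30.9% of all probe sets, with 6 lower and 2 higher, beside 16.7% and 14.2%. The mean was lower at day 3 for 13 of them, of which 6 were called. Several of the 13 belong to the same gene, and the share over all probe sets was not computed. Of the 6 genes with more than 1 probe set, Tfap2c had all of its probe sets called, Tfap2a and Hand1 had none called, and Cdx2, Elf5 and Gata2 had 1 of 2 called. For Elf5 and Gata2 the called probe set was the dimmer one, which was not the one kept for the gene.

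The sequences before the transcription starts are shown for the called genes found in a RefSeq table of promoters (GRCm38.p6), to set the letters of genes that fell (Cdx2, Gata3) beside those of the one that rose (Plac1, with 2 starts). The table matched 6 of the 8 genes, with 10 windows, and not Hand1 and Tfap2c. Each line gives the 250 bases before a start, 5′ to 3′ on the gene's strand. Capitals mark matches on either strand to GCCNNNGGC, a motif of AP-2 factors, or to GATAAG, a motif of GATA factors.
Cdx2, chr5:147307250-147307499, minus strand: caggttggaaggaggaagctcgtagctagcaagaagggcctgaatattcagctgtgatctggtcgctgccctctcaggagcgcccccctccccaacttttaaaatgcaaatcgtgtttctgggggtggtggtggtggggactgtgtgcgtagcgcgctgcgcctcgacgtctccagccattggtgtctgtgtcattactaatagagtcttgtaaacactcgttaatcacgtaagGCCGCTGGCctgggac
Gata3, chr2:9878601-9878850, minus strand: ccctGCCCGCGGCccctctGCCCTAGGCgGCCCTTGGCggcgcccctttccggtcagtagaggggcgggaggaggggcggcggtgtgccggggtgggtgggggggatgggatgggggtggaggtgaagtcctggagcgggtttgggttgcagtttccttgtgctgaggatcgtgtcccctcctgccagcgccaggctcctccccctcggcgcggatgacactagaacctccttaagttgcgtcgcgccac
Plac1, distal start, chrX:53240111-53240360, minus strand: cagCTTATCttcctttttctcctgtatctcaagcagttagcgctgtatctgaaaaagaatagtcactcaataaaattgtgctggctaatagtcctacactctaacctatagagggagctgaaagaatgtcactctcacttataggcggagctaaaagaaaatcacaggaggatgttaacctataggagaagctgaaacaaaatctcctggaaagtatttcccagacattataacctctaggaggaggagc
Plac1, proximal start, chrX:53114406-53114655, minus strand: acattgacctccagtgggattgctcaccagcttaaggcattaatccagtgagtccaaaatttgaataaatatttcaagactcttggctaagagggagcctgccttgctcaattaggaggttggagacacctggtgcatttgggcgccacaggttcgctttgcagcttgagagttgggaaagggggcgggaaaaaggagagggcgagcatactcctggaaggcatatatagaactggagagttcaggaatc

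Gata3 held 3 matches to the AP-2 motif, the first of them 246 bases before the start, and Cdx2 held 1 match 16 bases before the start. The distal Plac1 window held a GATA match 247 bases before the start, and the proximal window held no match to any motif searched. Over all 10 windows of the 6 genes, the AP-2 motif was found in 3, beside 13.7% of 32851 windows in the table, and GATAAG in 2, beside 6.5%. GGAATG, a motif of TEAD factors, was found in 2 windows, those of Elf5 and Gata2, beside 12.6%, and TTTATG, a motif of CDX factors, in 2, those of Elf5 and Tfap2a, beside 10.8%. No matches overlapped in the printed windows, and a match in letters is not evidence of binding.

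The windows also differed in CpG sites, the places where mammalian DNA is methylated. Cdx2 had 13 and Gata3 19 CpG sites in 250 bases, while the Plac1 windows had 2 and 4, with a median of 6 over all windows in the table. Gata2 had 22 and 24, Tfap2a 10 in both windows, and Elf5 2 and 8. Plac1, the gene that rose, had few sites in both windows, but 1 window of Elf5, which was not called, also had 2. Tfap2c had no window, and with so few genes this is a description only.

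**Figure D3:**
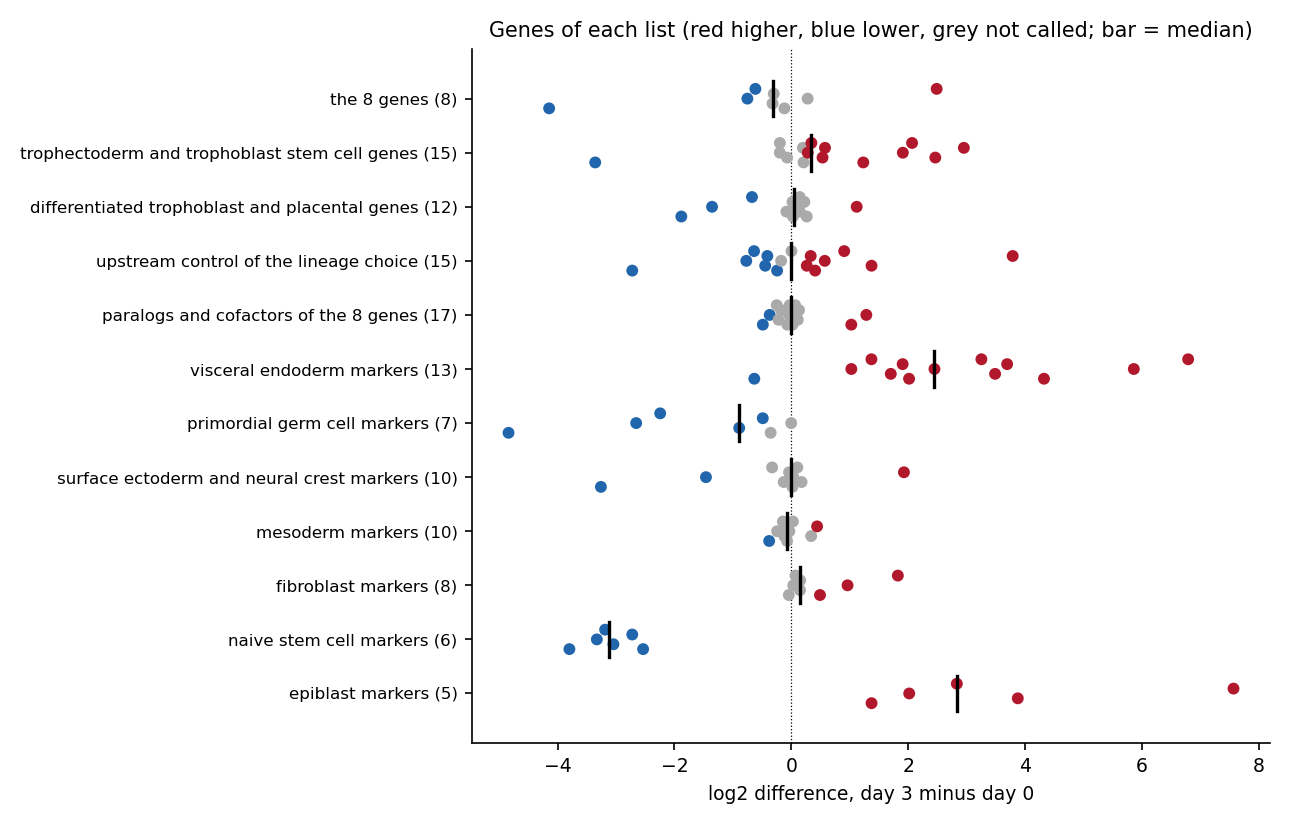
Log2 difference, day 3 minus day 0, of the genes of each list, with the number measured in parentheses. Each point is 1 gene, colours mark calls at an adjusted p under 0.05, vertical position within a list has no meaning, and the black bar is the list's median. The 8 genes straddle zero between Tfap2c (-4.14) and Plac1 (2.49), the visceral endoderm markers lie mostly to the right, and the naive stem cell markers all to the left.

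Other genes of trophectoderm and trophoblast stem cells mostly moved the other way from Cdx2. Of 15 measured, 9 were called higher and 1 lower, beside 20.9% and 21.4% of all genes, with a median difference of 0.34. Krt18, a keratin of simple epithelia, rose by 2.95 ± 0.12 (SE) and Eomes, a T-box factor of trophoblast stem cells, by 2.46 ± 0.10, while Aqp3, a water channel gene of the trophectoderm, fell by 3.36 ± 0.13, a fall called for 3 of 4 probe sets. Tead4, the activator of Cdx2 and Gata3, read 6.85 at day 0 and 6.65 at day 3, and its kept probe set was not called (adjusted p = 0.19), while its other probe set was called lower. Eomes and the keratins are also expressed in visceral endoderm, whose markers rose in the same arrays and whose part in these rises was not tested. Without day 3 replicate 2 the number lower was 2.

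Of 19 listed genes of differentiated trophoblast and placenta, 12 were measured, with 1 higher, 3 lower, 8 not called and a median of 0.04. Over all genes 20.9% were higher and 21.4% lower, so these counts lie near the background. The homeobox genes Rhox9 and Rhox6 fell by 1.88 ± 0.15 and 0.67 ± 0.18 (SE), and Peg10, an imprinted gene of retroviral origin needed for the placenta, fell by 1.36 ± 0.12. Ovol2, a zinc finger gene, rose by 1.12 ± 0.18. The spongiotrophoblast gene Tpbpa and the placental cathepsin genes Cts7 and Cts8 were below the first quartile on all 4 arrays. Without day 0 replicate 1 or day 3 replicate 2 the number higher was 2.

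Genes upstream of the lineage choice went both ways, with 7 of 15 higher, 6 lower, 2 not called and a median of 0.003. The shares of all genes called higher and lower were 20.9% and 21.4%. Amot, which holds the co-activator Yap1 in the cytoplasm of inner cells, rose by 3.79 ± 0.13 (SE) from 8.55 to 12.34, with all 3 probe sets called. Nanog fell by 2.72 ± 0.09, and Pou5f1, the repressor of Cdx2, differed by 0.003 ± 0.06. Dnmt3b, a DNA methyltransferase gene, rose by 1.37 ± 0.07. The kept probe set of Yap1 rose by 0.26 ± 0.05, but its other probe set was called lower.

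Of 17 paralogs and cofactors of the 8 genes, 2 were called higher, 2 lower and 13 were not called, with a median of 0.002. Beside this, 42.3% of all genes were called in either direction. Elf1, a broadly expressed relative of Elf5, rose by 1.28 ± 0.11 (SE), and Gata4, a GATA factor of endoderm, by 1.03 ± 0.11, each with 1 of 2 probe sets called. Cdx1 fell by 0.49 ± 0.13 and Hand2 by 0.37 ± 0.12, the latter with none of its 3 probe sets called in the fit over all probe sets. Without day 3 replicate 1 no gene was called lower, and without day 3 replicate 2 it was 1.

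Several of the 8 genes mark other tissues, so markers of those tissues are given beside them. Of 7 measured genes of primordial germ cells, where Tfap2c acts too, 5 fell and 2 were not called, with a median of -0.89. The share of all genes called lower was 21.4%. Prdm14 fell by 4.84 ± 0.12 (SE), Dazl fell by 2.65 ± 0.12 and Kit fell by 2.24 ± 0.07, followed by Dppa3 and Prdm1. In the day 0 stem cells Prdm14, Dazl and Kit read 9.73, 10.13 and 10.67, well above the arrays' median. The germ cell and naive stem cell lists may thus not mark separate cells. The log2 of the list's summed signals was 12.13 and 12.12 at day 0 and 10.26 and 10.15 at day 3. The naive stem cell markers all fell, with a median of -3.11, and Klf4 fell by 3.80 ± 0.07. The fall of Tfap2c thus stood beside falls of both marker lists, whose part in it was not tested.

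Of 10 genes of surface ectoderm and neural crest, where Tfap2a and Gata3 act, 1 rose, 2 fell and 7 were not called, with a median of -0.01. Beside these counts and those of mesoderm and fibroblast markers below, 20.9% of all genes were called higher and 21.4% lower. Grhl3, a grainyhead factor gene, fell by 3.26 ± 0.13 (SE), its relative Grhl2 rose by 1.93 ± 0.08, and Snai2 fell by 1.46 ± 0.17. The log2 of the summed signals was 10.45 and 10.33 at day 0 and 10.59 and 10.51 at day 3. Of 10 mesoderm markers, Mixl1 was called higher by 0.44 ± 0.14 and Mesp2 lower by 0.38 ± 0.12, and 8 were not called. Their summed signals were at 9.56 and 9.51, then 9.45 and 9.48. Neither mesoderm call held in every fit with 1 array left out: no mesoderm marker was called higher without day 0 replicate 2 or day 3 replicate 1, and none lower without either day 3 array. Of 8 fibroblast markers, which would show feeder cells, 3 rose, namely Thy1 (1.82 ± 0.10), Dcn (0.96 ± 0.13) and Col1a2 (0.49 ± 0.11), and 5 were not called. Dcn had 1 of 2 probe sets called and Col1a2 had 1 of 3. The log2 of their summed signals was 8.12 on both day 0 arrays and 9.10 and 9.08 at day 3. Thy1, from 6.25 to 8.07, had the highest signal of the list and weighs most in this sum. Col1a1 and S100a4 differed by 0.07 and 0.15 and were not called, while Col3a1, Lum and Postn were below the first quartile on all arrays. The source of the rise was not tested.

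The genes whose pattern was nearest to that of Tfap2c, by the distance over the 4 arrays between log2 values centred on each gene's mean, were Mymx (distance 0.17), Ttn (0.25) and Mylpf (0.28), among 18192 other genes. Their differences were -3.99, -4.05 and -3.91. Ttn had 6 probe sets, of which 2 were called lower and 4 were not called. With 2 arrays per day the measure rests mostly on the size of the fall.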

How the data were processed

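Total RNA was labelled with biotin and hybridized to 4 arrays. The deposited values are log2 signals, 1 per probe set and array, made by the authors with RMA in R 2.13.0, per the submitters' processing notes; settings and genome build are not given in the sources used here. RMA makes arrays' distributions alike, so a change in total RNA per cell is hidden, and differences between dim signals come out too small. Of 45101 probe sets, 64 were controls; 932 with several symbols were not used for genes. Differences were fitted with limma 3.58.1 in R 4.3.3 (lmFit, then eBayes with an intensity trend, no covariate, two-sided tests, 2 residual and about 8.02 prior degrees of freedom), over 18193 genes and, for single probe sets, over 45037 probe sets. A summed signal adds the linear values of a list's kept probe sets. Named genes were the 8 with all probe sets and up to 3 called genes of each list with the largest difference. Also named were 5 marker checks (Pou5f1, Nanog, Zfp42, Fgf5, Otx2) and the 3 nearest patterns. Tead4, Rhox6, Hand2, Yap1, Dppa3, Prdm1, Tpbpa, Cts7, Cts8 and Rhox5 were added after their values were seen. So were Col1a1, Col3a1, Lum, Postn, S100a4 and the other AP-2 genes. The members and lists were chosen with earlier results of these data known. Promoter windows came from RefSeq. Tested on simulated data for day 3 against day 0 over 18193 genes, the fit called 66% of 50 genes shifted by 0.5 (log2). It called 100% of 50 genes shifted by each of 1, 2 and 4 on that scale, and 19 of 17993 unchanged genes. Far fewer genes were shifted than the 42.3% called in the data, and the adjustment depends on that share. These rates therefore need not hold for the data. Alternatives changed the variance model, normalization, level filter, choice of probe set, replicate block, threshold or the arrays used. The number of arrays limits the precision.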

Additional observations from a re-analysis of the deposited data

How the results depend on the processing

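Tfap2c kept its call and direction in all 14 alternatives, and Cdx2 and Plac1 wherever the gene was tested, other than in the unmoderated test (adjusted p = 0.12 and 0.068). With the unmoderated test the number of members called higher, 1 as reported, was 0 and the number lower, 3 as reported, was 1. The counts were the same with only genes above the median level, but there only Hand1 and Tfap2c among the members were tested. When probe sets of a gene were averaged 2 were higher, Plac1 and Elf5. With 1 array left out the number higher ranged from 1 to 2 and the number lower from 2 to 3. Gata3 was no longer called without the intensity trend (adjusted p = 0.059), in the unmoderated test (0.36), at an adjusted p under 0.01, and in 3 of the fits with 1 array left out. Gata2 was called without the trend, after renewed quantile normalization, after median centring and from the mean of its probe sets (adjusted p = 0.029, 0.045, 0.048 and 0.0071). Hand1, never called, ranged from -0.30 to 0.066 with 1 array left out, with the sign changed without day 0 replicate 1 (0.066) or day 3 replicate 2 (0.065).

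The replicate 1 minus replicate 2 difference correlated at r = -0.02 across genes between days. With 1 such difference per day this cannot decide whether equal replicate numbers mark paired samples. With the replicate block 1 member was higher and 3 were lower, as without it, and 42.1% of genes were called against 42.3%. The unmoderated test called 11.8% of all genes, and these counts fell by over 1.5 times: trophectoderm genes higher went from 9 to 1, differentiated trophoblast genes from 1 higher and 3 lower to 0 and 1, upstream genes higher from 7 to 2, paralogs from 2 higher and 2 lower to 1 and 0, germ cell markers lower from 5 to 3, ectoderm markers lower from 2 to 1, fibroblast markers higher from 3 to 1, epiblast markers higher from 5 to 3, and mesoderm markers from 1 in each direction to 0. With only genes above the median level, differentiated trophoblast genes higher went from 1 to 0 and paralogs from 2 and 2 to 1 higher and 0 lower. Ectoderm markers lower went from 2 to 1, fibroblast markers higher from 3 to 1 and mesoderm markers to 0. Genes below that level were not tested in this setting. At an adjusted p under 0.01, 1 paralog was lower and no mesoderm marker was called. Without the trend, or when probe sets were averaged, 2 mesoderm markers were higher. With averaged probe sets 2 trophectoderm genes and 1 paralog were lower. The cause of other moves was not tested. Signal near the first quartile limits what can be said of Elf5 and of the second Gata2 probe set. The kept probe sets of Cdx2, Gata2, Gata3 and Tfap2a lay around the arrays' median. Without detection calls their small differences may also include background.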
